A study of Mus musculus with 23 samples.

Results

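The matrix metalloproteinases (MMPs) and their tissue inhibitors (TIMPs) were followed tumor by tumor in 23 B16-F1 melanomas. The members are a list of named genes, drawn up with earlier results of these data known, and all 10 were found among the 56748 genes of the count table. They were the 8 metalloproteinases Mmp2, Mmp3, Mmp8, Mmp9, Mmp10, Mmp12, Mmp13 and Mmp14, and the 2 inhibitors Timp1 and Timp3. B16-F1, a melanoma line that arose in C57BL/6 mice, had been grown under the skin of the flank of inbred DBA/2J mice that were 6 to 8 weeks old. By the intraperitoneal (IP) route, the groups CONTROL_IP (saline), PTX_IP (pentoxifylline, a methylxanthine, at 60 mg/kg), NCTD_IP (norcantharidin at 3 mg/kg) and MIX_IP (both drugs at those doses) held 2 tumors each. By the intratumoral (IT) route, CONTROL_IT (dimethyl sulfoxide), NCTD_IT and MIX_IT held 4 tumors each and PTX_IT held 3, at the same doses. Each route had its own vehicle and is labelled as its own batch, so that route, batch and vehicle cannot be told apart.

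MMPs are zinc-dependent proteases that cut collagens and other proteins of the extracellular matrix, along with many proteins of the cell surface. Most are secreted as inactive proenzymes that other proteases, such as plasmin or another MMP, cut to activate, and the TIMPs bind the active enzyme and block it. In melanoma and other solid tumors they are known for matrix remodelling, invasion and the growth of vessels, and they are made by fibroblasts, macrophages, neutrophils and endothelial cells as well as by tumor cells. Several MMP genes are induced through AP-1, a transcription factor of Fos and Jun subunits that binds a short site near their start. The enzyme's activity is set after transcription too, and the counts speak of RNA alone.

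The libraries read the 3′ end of messenger RNA and held between 2861578 and 6702374 counts per tumor, with a median of 4013068. Values are given as CPM, the counts divided by the scaled library size, and a floor of 3 counts corresponded to between 0.449 and 1.04 CPM. The melanoma markers summed to between 15319 and 31953 CPM across the IT tumors. All 4 NCTD_IT tumors and all 3 PTX_IT tumors held counts of Xist, the RNA of the inactive X chromosome of female cells, with 15 to 51 counts in NCTD_IT and 5 to 36 in PTX_IT. In the 4 CONTROL_IT tumors Xist had 0 to 2 counts and in the 4 MIX_IT tumors 0, whereas the Y-linked gene Ddx3y had 4 to 41 and 34 to 68 counts. The sex of the host mice therefore cannot be told apart from the drug when NCTD_IT or PTX_IT is set against CONTROL_IT or MIX_IT, whereas MIX_IT and CONTROL_IT were alike in these markers. By the IP route, CONTROL_IP replicate 2 held 55 counts of Xist and 3 of Ddx3y, while CONTROL_IP replicate 1 and the 6 treated tumors held 0 of Xist and 15 to 59 of Ddx3y, so that the IP Control group is of mixed host sex. Signs of RNA quality moved with the groups too. The nuclear RNA Malat1 lay between 76.3 and 96.5 CPM in CONTROL_IT, between 279 and 693 CPM in NCTD_IT and between 156 and 498 CPM in MIX_IT. Mitochondrial counts were 2.42 to 2.68% in CONTROL_IT and 3.57 to 5.73% in MIX_IT, while in NCTD_IT (2.47 to 6.32%) they overlapped with the Control group. NCTD_IT also lay wholly above CONTROL_IT in Gm10800 (1112 to 2800 against 204 to 377 CPM) and in ribosomal RNA (1.53 to 2.42% against 1.05 to 1.29%). PTX_IT lay wholly above CONTROL_IT in Gm10800 (695 to 1850 CPM) and in mitochondrial counts (2.97 to 3.86%). It overlapped with CONTROL_IT in Malat1 (74.2 to 424 CPM) and in ribosomal RNA (0.872 to 2.15%). The part of these measures in the results was not tested.

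Of the 10 members, 8 had enough counts to be tested. Mmp14, a membrane-bound MMP that cuts collagen and activates proMMP-2, was found in every tumor, between 123 and 463 CPM. Timp1, a secreted inhibitor of most MMPs, and Mmp12, the macrophage elastase, were above the floor in all 23 tumors, as was Mmp13, a collagenase. Timp3, an inhibitor bound to the matrix, was at or under the floor in 1 tumor, Mmp3 (stromelysin 1) in 3 tumors, and both Mmp8 (the neutrophil collagenase) and Mmp9 (gelatinase B) in 6 tumors. Mmp10 (stromelysin 2) had 44 counts in all 23 tumors together and was at or under the floor in 19 of them. Mmp2 (gelatinase A), with 4 counts over 23 tumors and never more than 2 in a tumor, was not detectable as counted. For reads counted as Mmp2, the floor allowed up to 1.04 CPM in the shallowest tumor. Its 3′ end is also covered by Gm45472, a gene on the other strand with 211 counts over the 23 tumors. Whether reads of Mmp2 were lost to this overlap was not tested, so its RNA may lie above that limit. Levels were not compared between genes, since reads were taken from the 3′ end alone.

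**Figure D1:**
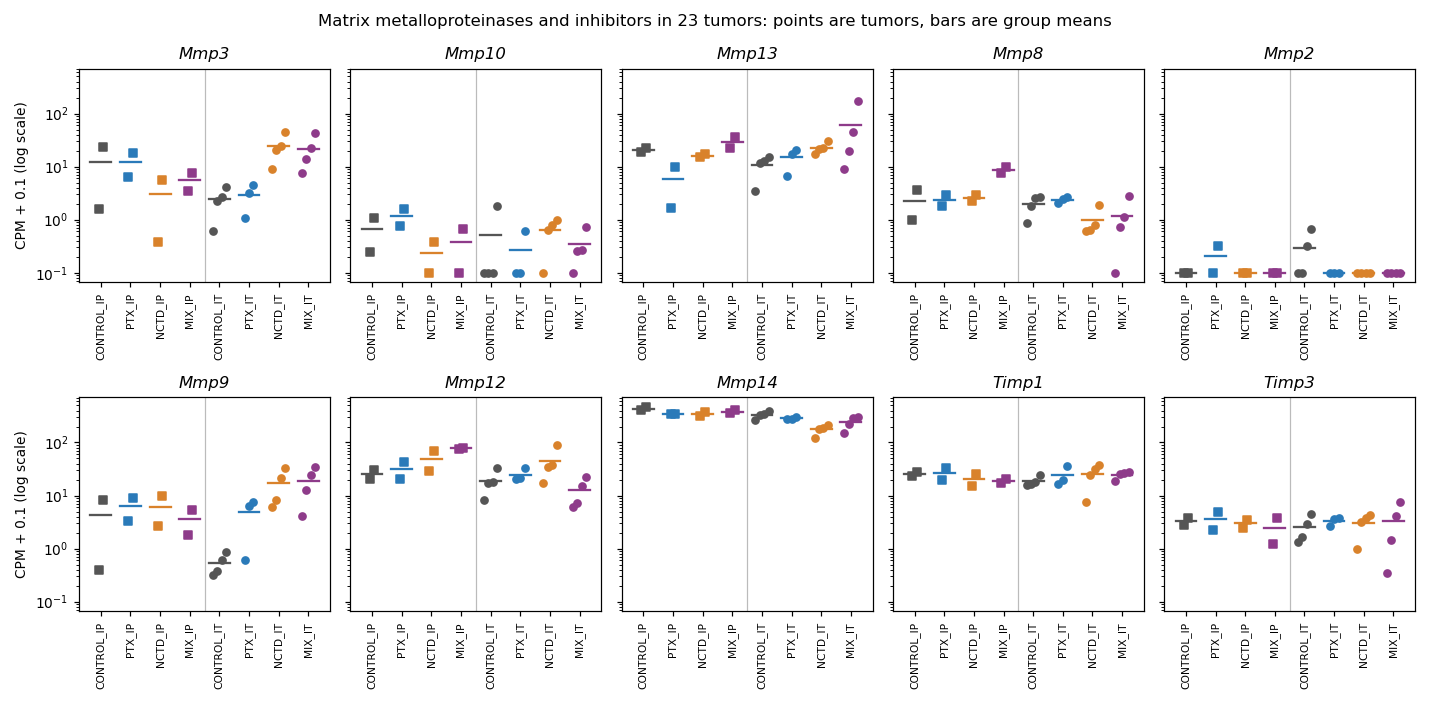
Level of the members in each of the 23 tumors, with CPM plus 0.1 on a log axis against the 8 groups; each point is a tumor and each bar a group mean. Mmp3 and Mmp9 lay higher in all NCTD_IT and MIX_IT tumors than in any CONTROL_IT tumor, and Mmp14 lay lower in all NCTD_IT tumors.

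In the genome, 5 members stood side by side on chromosome 9 (GRCm39, plus strand), within 296 kb: Mmp13 from 7272514 to 7283331, Mmp12 from 7344381 to 7369499, Mmp3 from 7445822 to 7455975, Mmp10 from 7502353 to 7510241 and Mmp8 from 7558457 to 7568486. The other members lay apart, with Mmp9 on chromosome 2 from 164782700 to 164797770, Mmp14 on chromosome 14 from 54669069 to 54682821, Timp1 on chromosome X from 20736405 to 20740974, Timp3 on chromosome 10 from 86136236 to 86185370 and Mmp2 on chromosome 8 from 93553919 to 93580048. The last 1473 bases of Mmp2 are also covered by Gm45472, a long noncoding RNA gene on the other strand with 0 to 25 counts per tumor, and the 3′ end of Mmp12 by Mmp1b, with 3 counts in all. Timp1 and Timp3 lie inside Syn1 and Syn3 on the other strand, which had at most 4 and 10 counts in a tumor. Mmp8 is covered over its whole length by Gm31751 on the other strand, a gene absent from the count table. Mmp14 shares 919 bases with Gm56768 on its own strand, which had 91 counts over the 23 tumors. It also shares 407 bases with Gm62879 on the other strand, likewise absent from the count table. The strand setting of the counting is not given in the sources used here, so reads of such pairs cannot be told apart.

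RefSeq windows of 300 bases, from 250 before to 50 after the start (GRCm38.p6), were matched by symbol for 8 of the 10 members. No window was found for Mmp9 or Mmp2, so their promoters were not searched for motifs. The window of Mmp3, which carries a result in NCTD_IT, is shown beside those of Mmp13, Mmp10 and Mmp12, its neighbours on chromosome 9, because these 4 genes hold the same pair of motifs near the start. Capitals mark the AP-1 letters TGAGTCA, which appear as TGACTCA where the site lies on the other strand. They also mark the core letters of the box that binds the general transcription factor, TATAAA, with TTTATA searched for the other strand, and no match of either motif overlapped another. The windows lie on the plus strand at chr9:7445572-7445871 (Mmp3), chr9:7272264-7272563 (Mmp13), chr9:7502092-7502391 (Mmp10) and chr9:7347124-7347423 (Mmp12, the downstream of 2 listed starts).
Mmp3: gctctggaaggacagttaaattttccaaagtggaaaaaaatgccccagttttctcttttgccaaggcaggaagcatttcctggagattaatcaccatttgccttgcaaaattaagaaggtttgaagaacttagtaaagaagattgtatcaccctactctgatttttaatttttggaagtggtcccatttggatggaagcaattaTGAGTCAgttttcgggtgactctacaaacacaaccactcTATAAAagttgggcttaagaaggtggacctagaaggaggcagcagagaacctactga
Mmp13: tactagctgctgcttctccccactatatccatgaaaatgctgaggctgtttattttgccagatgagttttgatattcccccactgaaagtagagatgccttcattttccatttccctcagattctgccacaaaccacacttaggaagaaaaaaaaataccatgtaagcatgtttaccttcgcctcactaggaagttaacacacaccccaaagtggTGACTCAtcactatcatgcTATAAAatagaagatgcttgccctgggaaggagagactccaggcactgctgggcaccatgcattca
Mmp10: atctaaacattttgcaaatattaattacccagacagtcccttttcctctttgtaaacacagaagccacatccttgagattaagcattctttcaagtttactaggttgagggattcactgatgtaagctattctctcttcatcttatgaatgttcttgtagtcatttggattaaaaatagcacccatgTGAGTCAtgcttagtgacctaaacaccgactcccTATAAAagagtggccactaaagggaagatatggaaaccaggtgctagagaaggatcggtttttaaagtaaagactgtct
Mmp12: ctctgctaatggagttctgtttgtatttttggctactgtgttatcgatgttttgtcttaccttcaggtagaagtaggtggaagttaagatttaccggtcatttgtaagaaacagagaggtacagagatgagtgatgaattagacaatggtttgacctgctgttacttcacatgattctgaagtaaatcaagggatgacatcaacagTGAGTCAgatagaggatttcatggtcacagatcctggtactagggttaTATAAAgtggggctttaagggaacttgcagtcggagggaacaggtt
The AP-1 letters began 46 bases upstream of the start in Mmp3, 35 in Mmp13, 63 in Mmp10 and 44 in Mmp12. The TATAAA letters did not share a position. They ran from -29 to -24 in Mmp10, from -16 to -11 in Mmp13 and from -7 to -2 in Mmp3. In Mmp12 they lay downstream of the listed start, at bases 5 to 10. Over all 32851 promoter windows searched, 5.2% held the AP-1 letters and 13.6% the TATA box letters. Mmp8 held the TATA box letters only, and Mmp14, Timp1, Timp3 and the upstream start of Mmp12 held neither in their window. A match of letters is a description of the sequence and not a measurement of binding.

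In NCTD_IT tumors, Mmp9 and Mmp3 were higher and Mmp14 lower compared to the Control group of the route. Mmp9, a gelatinase that cuts denatured collagen and the collagen of basement membranes, was at 0.515, 0.219, 0.756 and 0.283 CPM in the 4 CONTROL_IT tumors, that is 1 to 3 counts each, and at 8.00, 33.2, 21.4 and 5.87 CPM in the 4 NCTD_IT tumors. The lowest NCTD_IT tumor thus lay above the highest control. Mmp9 rose by a log2 fold change of 5.18 ± 0.92 (SE; adjusted p = 0.0280, edgeR quasi-likelihood test with Benjamini-Hochberg adjustment), and the pooled counts, 243 against 7, gave a ratio of 35 with a 95% interval from 16.8 to 88.1 that covers counting error only. Because the Control tumors stood at the floor, the fitted size of this change depends on the prior count. In bulk tumors, more or fewer cells of a type and more or less RNA per cell cannot be told apart, here and for every member.

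Mmp3, a stromelysin that cuts proteoglycans and several proMMPs, was at 0.515, 2.19, 4.03 and 2.55 CPM in CONTROL_IT and at 20.2, 44.1, 24.5 and 9.07 CPM in NCTD_IT. All NCTD_IT tumors were above all Control tumors. Mmp3 rose by a log2 fold change of 3.38 ± 0.65 (adjusted p = 0.0280), from a mean of 2.32 ± 1.44 to 24.5 ± 14.6 CPM (SD, n = 4 each). Mmp14 moved the other way, from 385, 324, 351 and 267 CPM in CONTROL_IT to 180, 189, 123 and 210 CPM in NCTD_IT, again without overlap. Its means were 332 ± 49.7 and 176 ± 37.5 CPM (SD, n = 4 each), and it fell by 0.92 ± 0.21 on the log2 scale (adjusted p = 0.0482). The values of Mmp14 rested on 5309 counts in CONTROL_IT and 2826 in NCTD_IT.

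Thus 3 of the 8 tested members passed the adjusted threshold, 2 higher and 1 lower, where 1.37% of the 12480 genes tested did, 0.921% higher and 0.449% lower. At an unadjusted p below 0.05 there were 4 members against 21.6% of all genes, the fourth being Mmp12, which was at 8.24, 32.4, 16.9 and 17.8 CPM in CONTROL_IT and 34.6, 89.3, 17.3 and 37.1 CPM in NCTD_IT (log2 fold change 1.23 ± 0.49, adjusted p = 0.161). With a tumor left out in turn, the log2 fold change of Mmp12 lay between 0.66 and 1.65. The groups overlapped for Mmp12, whereas Mmp3, Mmp9, Mmp13 and Mmp14 did not overlap, which held for 16.8% of all genes. Mmp13, at 3.35 to 14.9 CPM in CONTROL_IT and 16.9 to 30.7 CPM in NCTD_IT, was among the 4 remaining members, with log2 fold changes between -1.09 and 1.08 and unadjusted p between 0.140 and 0.789. The median log2 fold change was 0.77 over the tested members and 0.03 over all genes.

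The calls in NCTD_IT depended on single tumors. When a tumor was left out in turn, Mmp3 and Mmp9 kept an adjusted p below 0.05 in 3 of 8 fits and lost it without CONTROL_IT replicate 9, 11 or 12 or NCTD_IT replicate 17 or 18, with adjusted p between 0.0568 and 0.117, while their log2 fold changes stayed between 2.94 and 3.79 and between 4.64 and 5.56. Mmp14 lost its call in all 8 fits (adjusted p 0.0520 to 0.140), with a log2 fold change between -1.01 and -0.77. With Xist as a covariate, which stands in for the sex of the host, the log2 fold changes were 4.09 ± 1.25 for Mmp3, 2.92 ± 1.58 for Mmp9 and -0.98 ± 0.44 for Mmp14, each with an adjusted p of 0.825. Xist lay between 5.19 and 13.6 CPM in NCTD_IT and between 0 and 0.566 CPM in CONTROL_IT, so the covariate nearly coincided with the group. This fit therefore cannot separate host sex from the drug, and no conclusion is drawn from the lost calls.

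**Figure D2:**
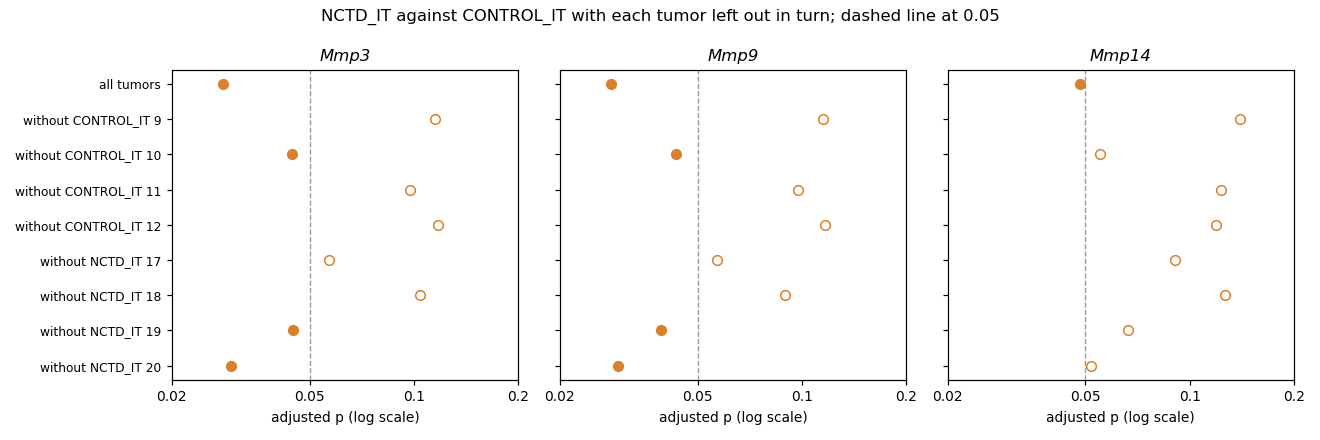
Adjusted p (log axis) of Mmp3, Mmp9 and Mmp14 in NCTD_IT compared to CONTROL_IT, with all tumors and with each of the 8 tumors left out in turn; the dashed line is at 0.05, and filled points lie below it. Mmp3 and Mmp9 stay below the line in 3 of the 8 fits and Mmp14 in 0.

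Markers of other cells moved beside these members. The 12 neutrophil markers summed to between 4.53 and 10.1 CPM in CONTROL_IT and to 30.6, 1125, 50.5 and 21.9 CPM in NCTD_IT. The second of these tumors, replicate 18, also had the highest Mmp9, Mmp3 and Mmp12 of its group, and its neutrophil sum was carried by S100a8 and S100a9 at 295 and 758 CPM. Of the 12, 4 were tested and all were higher in NCTD_IT at an unadjusted p below 0.05, where 11.6% of genes were. S100a8 (log2 fold change 5.60 ± 1.16) and S100a9 (6.63 ± 1.40) passed the adjusted threshold, each with an adjusted p of 0.0363. Their NCTD_IT levels of 80.9 ± 143 and 200 ± 372 CPM (SD, n = 4) had spreads larger than the means. Csf3r (2.18 ± 0.79, adjusted p = 0.130) and Il1r2 (3.09 ± 1.19, adjusted p = 0.148) did not pass. Ly6g, Mpo, Ngp and Elane had at most 3 counts in any of the 23 tumors. Replicate 18 also had the highest sums of keratinocyte and skeletal muscle markers of the IT tumors, at 13.8 and 248 CPM. In CONTROL_IT these sums were 0 to 1.53 and 5.66 to 43.4 CPM. The 10 fibroblast markers summed to 118 to 391 CPM in CONTROL_IT and 410 to 1803 CPM in NCTD_IT, and the 12 macrophage markers to 113 to 709 and 413 to 1432 CPM. The 8 endothelial markers summed to 41.0 to 70.7 CPM in CONTROL_IT and 88.5 to 166 CPM in NCTD_IT, without overlap, and of the 6 tested, Emcn passed the adjusted threshold (log2 fold change 1.29 ± 0.29, adjusted p = 0.0414). The 7 melanoma markers, beside the lower Mmp14, summed to 26293 to 31953 CPM in CONTROL_IT and 19269 to 27151 CPM in NCTD_IT, and of the 7, Mitf, the master regulator of melanocytes, fell by 0.86 ± 0.18 on the log2 scale (adjusted p = 0.0363). Without replicate 18 the log2 fold changes were 2.94 for Mmp3 and 4.64 for Mmp9, and the part of these cells in the result was not tested.

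**Figure D3:**
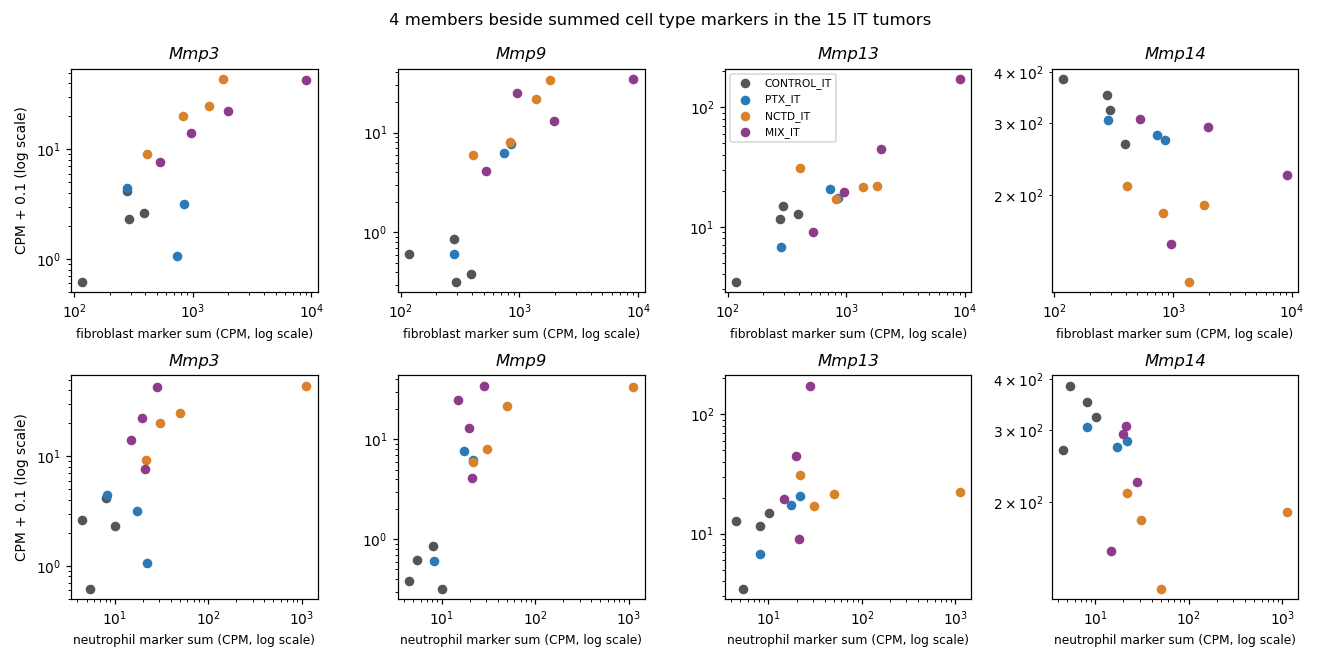
Level of Mmp3, Mmp9, Mmp13 and Mmp14 (CPM plus 0.1) against the summed CPM of fibroblast markers (upper row) and neutrophil markers (lower row), all on log axes, with a point for each of the 15 IT tumors, colored by group. The NCTD_IT tumor with 1125 CPM of neutrophil markers and the MIX_IT tumor with 9107 CPM of fibroblast markers stood apart from the rest of their groups.

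In MIX_IT tumors, which received both drugs, the same pair of genes lay above the Control group. Mmp9 was at 12.8, 4.06, 34.5 and 24.7 CPM, and Mmp3 at 22.5, 7.49, 43.2 and 14.0 CPM. Neither gene overlapped with CONTROL_IT, which held for 9.91% of all genes. The log2 fold changes were 5.34 ± 0.92 for Mmp9 (adjusted p = 0.104) and 3.20 ± 0.65 for Mmp3 (adjusted p = 0.121), so that neither passed the threshold, which 0% of genes passed in this comparison. By the same edgeR test the unadjusted p were 2.5e-05 for Mmp9 and 0.000138 for Mmp3, against 3.59e-05 and 8.54e-05 in NCTD_IT. Adjusted p depend on the other genes of a comparison too, so their difference between NCTD_IT and MIX_IT does not show a weaker change in MIX_IT. The pooled counts gave ratios of 40.4 (95% interval 19.4 to 101) for Mmp9 and 8.44 (6.02 to 12.2) for Mmp3. Without MIX_IT replicate 22, the lowest tumor of its group for both, Mmp9 reached an adjusted p of 0.0238, and by DESeq2 on both groups alone the adjusted p was 2.3e-08 for Mmp9 and 7.2e-05 for Mmp3.

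Mmp13, a collagenase of fibroblasts and cartilage, was the third member with an unadjusted p below 0.05 in MIX_IT, against 13% of all genes. It was at 45.0, 8.90, 173 and 19.3 CPM, compared to 3.35, 14.9, 11.6 and 12.7 CPM in CONTROL_IT, so that the groups overlapped. The log2 fold change of 2.52 ± 0.71 (adjusted p = 0.174) was carried by replicate 23 and became 1.17 without it (adjusted p = 0.576). That tumor also had the highest Mmp3 and Mmp9 of its group and a fibroblast sum of 9107 CPM, against 527 to 1973 CPM in the other MIX_IT tumors, with the collagen gene Col1a1 alone at 4664 CPM. Without it, Mmp3 had a log2 fold change of 2.63 and Mmp9 of 4.88. The other 5 tested members lay between -0.74 and 0.42, among them Mmp14 at 294, 307, 225 and 152 CPM and Mmp12 at 7.06, 22.3, 6.07 and 15.3 CPM. Neutrophil markers summed to 14.8 to 28.2 CPM in MIX_IT, above all CONTROL_IT tumors, and endothelial markers to 70.1 to 245 CPM, and the part of any of these cells was not tested. NCTD_IT and MIX_IT were set against the same 4 Control tumors, so their log2 fold changes are not independent of each other.

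In PTX_IT tumors a single member, Mmp9, had an unadjusted p below 0.05, where 6.35% of all genes did. It was at 7.53, 6.12 and 0.514 CPM, and the third of these lay within the range of CONTROL_IT. The log2 fold change was 3.32 ± 1.00 with an adjusted p of 0.758, and the pooled ratio of 48 against 7 counts was 10.3 (95% interval 4.65 to 27.1). The fibroblast sums of these tumors were 848, 736 and 280 CPM and the macrophage sums 1094, 1327 and 122 CPM in the same order, and the part of these cells in the values of Mmp9 was not tested. Mmp3 was at 3.07, 0.967 and 4.37 CPM in PTX_IT and Mmp14 at 272, 281 and 305 CPM, both overlapping with the Control group. No member was without overlap, where 7.96% of all genes were, and no gene passed adjustment (0%). The other 7 tested members had log2 fold changes between -0.21 and 0.46.

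**Figure D4:**
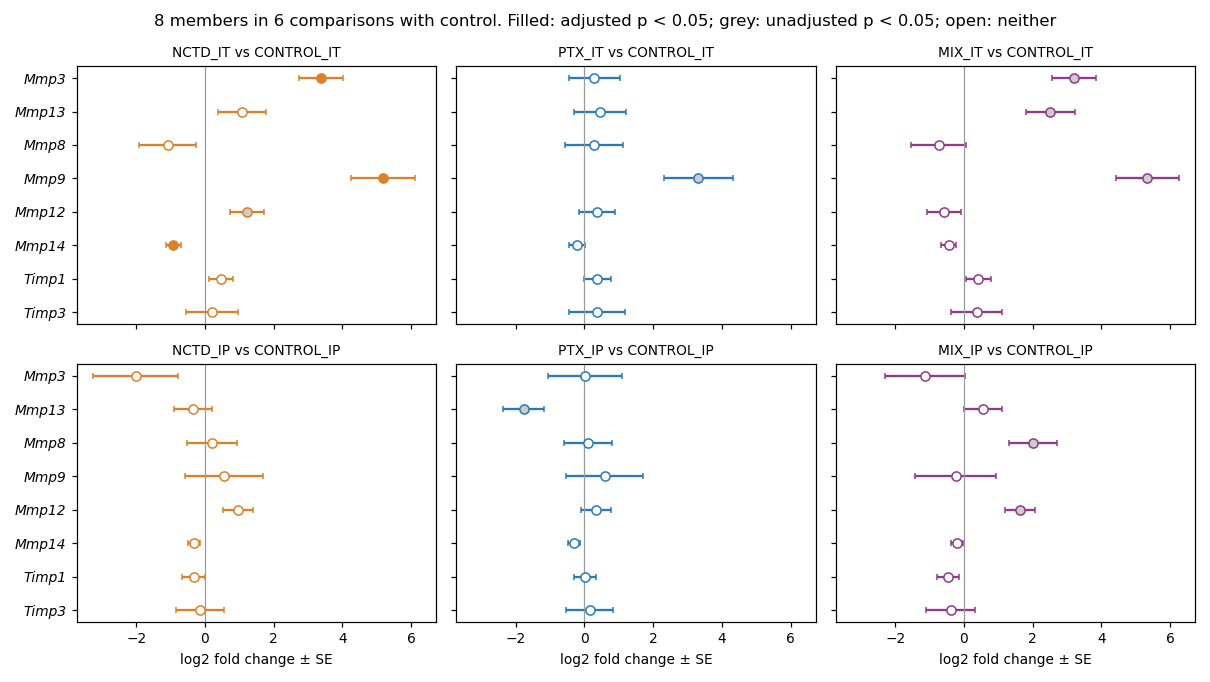
Log2 fold change of the tested members in each treated group compared to the Control group of its route, with the SE as bars; filled points have an adjusted p below 0.05, grey points an unadjusted p below 0.05, and open points neither. The filled points are Mmp3, Mmp9 and Mmp14 in NCTD_IT.

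NCTD_IT and PTX_IT could also be compared with each other, a comparison chosen after the data were seen because Xist was counted in every tumor of both groups. Mmp3 was higher in all NCTD_IT tumors than in any PTX_IT tumor (log2 difference 3.08 ± 0.72, unadjusted p = 0.000545), and Mmp14 was lower in all (-0.70 ± 0.23, unadjusted p = 0.00705). Mmp9 differed by 1.86 ± 0.79 (unadjusted p = 0.0308) with overlap. None passed adjustment, each with an adjusted p of 0.999, and the 3 members at an unadjusted p below 0.05 stood against 3.87% of all genes. Mmp8 did not overlap between these groups either, at 0.522 to 1.76 CPM in NCTD_IT and 1.95 to 2.58 CPM in PTX_IT, where 4.43% of all genes did not overlap.

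Setting the combination against each drug by the IT route asked whether the members moved further with both. In these comparisons the drugs given and the sex of the host cannot be told apart, since Xist was counted in all NCTD_IT and PTX_IT tumors and in no MIX_IT tumor. Compared to NCTD_IT, MIX_IT had lower Mmp12 (log2 difference -1.80 ± 0.50, unadjusted p = 0.00239) and higher Mmp13 (1.44 ± 0.67, unadjusted p = 0.0475) and Mmp14 (0.47 ± 0.21, unadjusted p = 0.0413), with adjusted p of at least 0.803, where 0.00801% of all genes passed adjustment. No member was without overlap, compared to 2.99% of all genes. These 3 members stood against 6.02% of all genes. With a tumor left out in turn, the difference of Mmp12 lay between -2.21 and -1.22. The other 5 tested members, Mmp3 and Mmp9 among them, had log2 differences between -0.17 and 0.35 from NCTD_IT. Compared to PTX_IT, MIX_IT was higher in Mmp3 (2.91 ± 0.72, unadjusted p = 0.000858), Mmp13 (2.06 ± 0.77, unadjusted p = 0.0163) and Mmp9 (2.02 ± 0.79, unadjusted p = 0.0206), each with an adjusted p of 0.982, against 3.75% of all genes at an unadjusted p below 0.05. Without MIX_IT replicate 23, the tumor with 173 CPM, the differences of Mmp13 were 0.08 from NCTD_IT and 0.71 from PTX_IT. Mmp3 alone did not overlap with PTX_IT, which held for 4.21% of all genes.

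The departure of MIX_IT from the sum of the single-drug changes was below 0 for Mmp9 (-3.16 ± 1.21 in log2, unadjusted p = 0.0182) and Mmp12 (-2.17 ± 0.73, unadjusted p = 0.00846) and above 0 for Mmp14 (0.69 ± 0.31, unadjusted p = 0.0442). For Mmp9, the fitted change in MIX_IT of 5.34 was set against a sum of 5.18 and 3.32. The departure of Mmp12 lay between -2.59 and -1.60 with a tumor left out in turn. At an unadjusted p below 0.05 there were 11.3% of all genes and past adjustment 0.0401%, and the adjusted p of the 3 members lay between 0.379 and 0.438, so that a departure from the sum was not established for any member. Host sex differed between the groups of this contrast as well.

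By the IP route the Control tumors, which differed in the markers of host sex, spread widely. Mmp3 was at 23.1 and 1.5 CPM and Mmp9 at 8.15 and 0.300 CPM in the 2 CONTROL_IP tumors, so that most treated tumors lay between them. Mmp9 was at 8.98 and 3.28 CPM in PTX_IP, 2.52 and 9.55 CPM in NCTD_IP and 5.22 and 1.68 CPM in MIX_IP. Mmp3 was at 18 and 6.33, 0.28 and 5.49, and 7.57 and 3.37 CPM in the same order. The treated tumors outside the range of the Control group were those of Mmp9 at 8.98 and 9.55 CPM and of Mmp3 at 0.28 CPM, and neither gene separated a treated group from CONTROL_IP. No member passed the adjusted threshold in any IP comparison, nor did any of the 12424 genes tested (0%), with 0 genes by edgeR against 3.59%, 5.3% and 2.94% of genes at an unadjusted p below 0.05 in NCTD_IP, PTX_IP and MIX_IP.

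Of the members at an unadjusted p below 0.05 by the IP route, Mmp12 was higher in MIX_IP, at 74.6 and 79.7 CPM against 29.9 and 20.6 CPM in CONTROL_IP (log2 fold change 1.63 ± 0.43, unadjusted p = 0.00418). Mmp8 was at 7.57 and 9.82 CPM in MIX_IP and 3.49 and 0.901 CPM in CONTROL_IP (2.01 ± 0.68, unadjusted p = 0.0159), both genes with an adjusted p of 0.999. Without CONTROL_IP replicate 1 or 2, the log2 fold change of Mmp8 was 3.24 or 1.32. Macrophage markers, beside Mmp12, summed to 629 and 378 CPM in MIX_IP and 422 and 663 CPM in CONTROL_IP, and neutrophil markers, beside Mmp8, to 9.39 and 13.2 against 12.6 and 7.66 CPM. The part of these cells was not tested. In PTX_IP, Mmp13 was lower, at 9.88 and 1.53 CPM against 22.1 and 18.6 CPM (-1.77 ± 0.58, unadjusted p = 0.0138, adjusted p = 0.906), and without PTX_IP replicate 3 or 4 the log2 fold change was -3.72 or -1.05. In NCTD_IP no member reached an unadjusted p below 0.05, with log2 fold changes between -2.02 and 0.96. With 2 tumors a group, lack of overlap is common, and MIX_IP, NCTD_IP and PTX_IP had 5, 2 and 2 such members against 35.9%, 34.3% and 31.8% of all genes.

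A fit to the whole set of 23 tumors asked whether a drug changed the members differently by the IT and the IP route. NCTD changed Mmp3 by 5.40 ± 1.41 more in log2 by the IT than by the IP route (unadjusted p = 0.000971, adjusted p = 0.271) and Mmp9 by 4.62 ± 1.59 more (unadjusted p = 0.00860, adjusted p = 0.318), where 10.8% of all genes had an unadjusted p below 0.05. Without CONTROL_IP replicate 1, in which both genes were high, the differences were 2.39 for Mmp3 and 0.95 for Mmp9 and no member reached an unadjusted p below 0.05, and without NCTD_IP replicate 6 that of Mmp3 was 8.66. For MIX, 4 members did against 7.44% of genes, with differences of 5.59 ± 1.63 for Mmp9, 4.35 ± 1.36 for Mmp3, -2.17 ± 0.82 for Mmp12 and -2.71 ± 1.19 for Mmp8 and adjusted p of at least 0.584. Without CONTROL_IP replicate 1 these became 1.90 for Mmp9 and 1.33 for Mmp3. For PTX there were none, against 5.23% of genes. In the differences of NCTD and PTX, host sex changed with the route, as the treated IP tumors held no Xist. A difference between the routes was thus not established for any member.

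The inhibitors showed no change past the threshold in any comparison. Timp1 was at 16.2, 15.6, 23.9 and 17.5 CPM in CONTROL_IT, at 32.0, 37.0, 7.61 and 24.3 CPM in NCTD_IT, and at 26.1, 28.1, 25.7 and 18.7 CPM in MIX_IT. NCTD_IT thus held both the lowest and the highest Timp1 of the IT tumors, and replicate 19, the tumor with 7.61 CPM, had an Mmp9 of 21.4 CPM. The group means of Timp1 were 18.3 ± 3.84, 25.2 ± 12.9 and 24.6 ± 4.13 CPM (SD, n = 4 each) in that order, and the log2 fold changes of Timp1 lay within the ranges given above for the members short of the unadjusted threshold. Timp3 had means of 2.50 ± 1.43, 2.96 ± 1.45 and 3.24 ± 3.17 CPM in the same groups (SD, n = 4 each) and 3.25 ± 0.588 CPM in PTX_IT (SD, n = 3). Across the IP tumors Timp1 lay between 15.1 and 32.3 CPM and Timp3 between 1.12 and 4.79 CPM. At these counts a change of Timp3 smaller than the spread between tumors was not detectable.

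Genes that act beside the members were followed as lists, none of whose genes passed the adjusted threshold in any of these comparisons. Of 15 other metalloproteinase genes, 4 were tested by the IT route and 0 had an unadjusted p below 0.05 in NCTD_IT, PTX_IT or MIX_IT compared to the Control group. Among 4 other inhibitors, 2 were tested, and Timp2 was at 309 ± 49.6 CPM in CONTROL_IT and 227 ± 67.7 CPM in NCTD_IT (SD, n = 4 each; log2 fold change -0.45 ± 0.20, adjusted p = 0.206). Of 7 genes of plasminogen activation, which feeds the cutting of proMMPs, 5 were tested, and 3 were higher in NCTD_IT at an unadjusted p below 0.05, where 11.6% of genes were. Plaur, the receptor of urokinase, had a log2 fold change of 1.62 ± 0.42 (adjusted p = 0.0579), Plat, tissue plasminogen activator, of 1.34 ± 0.46 (adjusted p = 0.110), and Serpine2, an inhibitor of such proteases, of 1.27 ± 0.58 (adjusted p = 0.216). In MIX_IT, Plat (1.20 ± 0.46) and Serpine2 (1.59 ± 0.58) were past the unadjusted threshold, where 13% of all genes were.

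Of 14 AP-1 and cytokine genes, 9 were tested, and 5 were higher in NCTD_IT at an unadjusted p below 0.05, where 11.6% of all genes were, with adjusted p from 0.0618 to 0.181. They were the AP-1 subunits Junb (log2 fold change 1.30 ± 0.36) and Jund (1.48 ± 0.48) and the inflammatory cytokines Il1b (3.43 ± 1.02), Tnf (1.96 ± 0.83) and Osm (2.89 ± 0.91). Il1b was at 235 ± 396 CPM in NCTD_IT (SD, n = 4), a spread larger than its mean. In MIX_IT, where Mmp3 and Mmp9 overlapped with NCTD_IT in level, 0 of the 9 genes had an unadjusted p below 0.05, against 13% of all genes, a share at which 0 of 9 is no result about the list. Compared to NCTD_IT, MIX_IT had lower Il1b (log2 difference -2.84 ± 0.99, unadjusted p = 0.0108) and Junb (-0.85 ± 0.35, unadjusted p = 0.0270), each with an adjusted p of 0.803. PTX_IT had Jund alone (1.32 ± 0.51, adjusted p = 0.785), and by the IP route Fos was higher in NCTD_IP (1.26 ± 0.32) and MIX_IP (0.83 ± 0.32), both with an adjusted p of 0.999.

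Of 10 ADAM and ADAMTS genes, proteases that TIMPs block as well, 9 were tested. Adam10, a sheddase of cell surface proteins, had a mean of 144 ± 10.6 CPM in CONTROL_IT, against 218 ± 32.5 CPM after NCTD and 215 ± 20.2 CPM after both drugs (SD, n = 4 each), with log2 fold changes of 0.60 ± 0.16 (adjusted p = 0.0604) and 0.58 ± 0.16 (adjusted p = 0.175). Adamts2, which trims procollagen, had log2 fold changes of 1.15 ± 0.51 in NCTD_IT and 1.35 ± 0.51 in MIX_IT. Adam19 (1.46 ± 0.64) was past the unadjusted threshold in NCTD_IT, and Adam12 (-1.0 ± 0.42) in MIX_IT. Of the 9 genes, 3 were thus past it in NCTD_IT, against 21.6% of all genes. In MIX_IT 2 were higher and 1 lower, against 13% of all genes. Of 4 partners of MMPs, 3 were tested, and 1 was past the unadjusted threshold in each of these groups. It was Cd44, a hyaluronan receptor that can hold Mmp9 at the cell surface. Its log2 fold changes were 0.40 ± 0.14 in NCTD_IT (adjusted p = 0.119) and 0.34 ± 0.14 in MIX_IT (adjusted p = 0.312). By the IP route, Plau was lower in PTX_IP (-1.14 ± 0.38), Adamts5 in NCTD_IP (-2.07 ± 0.55) and Adam19 in MIX_IP (-2.81 ± 0.90), with adjusted p of at least 0.906.

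The genes whose pattern over the 15 IT tumors was most like that of a member were listed by Spearman's rho of log2 CPM, as a description over tumors that share groups and depth. For Mmp9 they were Epb41l2 (rho 0.925), Hyou1 (0.918) and Col5a3 (0.914). For Mmp13 they were Scamp1 (0.936), Apaf1 (0.932) and Impact (0.925), and for Timp1 they were BC065397 (0.911), Gm28437 (0.868) and Snx19 (0.857).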

How the data were processed

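RNA of 23 B16-F1 tumors was sequenced from the 3′ end of messenger RNA. The authors trimmed the reads with Trimmomatic, checked them with FastQC and aligned them to GRCm39 with STAR 2.7.11b, and the counts per gene were deposited without normalization. The strand setting, the treatment of reads with several alignments and any use of molecular identifiers are not given in the sources used here. Tumors were grouped by their labels.

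From these counts, CPM were computed with TMM-scaled libraries of all 23 tumors. Genes were kept by filterByExpr (minimum count 10, minimum total 15), which left 12480 genes of the IT route, 12424 of the IP route and 13395 of all 23 tumors. The quasi-likelihood test of edgeR 4.0.16 (R 4.3.3, limma 3.58.1) was fitted over all genes, with the 4 groups of a route in a model and all 23 tumors for differences between routes. Adjusted p are Benjamini-Hochberg values over all genes tested, with a threshold of 0.05. The p-values set a difference between groups against the spread between tumors, 1 sample each. That spread was estimated over all groups of a model and drawn toward its trend over genes. For the IP groups of 2 tumors it thus rests in part on other groups and genes. Intervals of pooled counts are exact 95% intervals. DESeq2 1.42.0, other scalings and filters, single-tumor omissions and Xist as a covariate were tried as alternatives. On simulated counts with 200 genes changed by a log2 of 2, the NCTD_IT comparison recovered 141 of 196 tested changed genes (71.9%) with 6 unchanged genes called, and the NCTD_IP comparison 143 of 195 (73.3%) with 22. Replicate tumors differed beyond sampling noise in all 25 pairs (chi-square per degree of freedom 8.09 to 64.6).

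The members and lists were chosen with earlier results of these data known. All 10 members were named. For members with an unadjusted p below 0.05, a log2 fold change was given with its error. The other tested members were given by their range in some comparisons. Listed genes and cell markers were given in part only. A gene of these lists that is not mentioned may thus also have an unadjusted p below 0.05, as did Col1a1 in MIX_IT. Promoter windows came from RefSeq (GRCm38.p6).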

Additional observations from a re-analysis of the deposited data

Results flagged for a closer look

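Within the 28 groups of 4 tumors and member genes examined for a tumor far from the others, 2 stood out. For normally distributed values chance alone gives about 1 in 20, a rate that need not hold for counts near the floor. Where the other tumors are all at 0, as for Mmp10 below, any count is flagged. Mmp8 was at 1.76 CPM in NCTD_IT replicate 18, against 0.522 to 0.691 CPM in the other NCTD_IT tumors. This is the tumor whose neutrophil markers summed to 1125 CPM. Its Mmp8 lay within the range of CONTROL_IT (0.772 to 2.52 CPM) and below all PTX_IT tumors (1.95 to 2.58 CPM), and the part of neutrophils was not tested. Mmp10 was at 1.70 CPM, or 6 counts, in CONTROL_IT replicate 12 and at 0 in the other CONTROL_IT tumors, so that both values rested on few counts.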

How the results depend on the processing

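No paired analysis was possible because no 2 tumors carry the same replicate number. With each tumor left out in turn, the number of members with an adjusted p below 0.05 ranged from 0 to 2 in NCTD_IT (3 with all tumors) and 0 to 1 in MIX_IT, and was 0 in the other comparisons. An omission in a group of 2 leaves a lone IP tumor, which is assumed to vary like the others. At an unadjusted p below 0.05 the counts ranged from 3 to 5 in NCTD_IT, 3 to 4 in MIX_IT, 1 to 1 in PTX_IT and NCTD_IP, 1 to 3 in PTX_IP and MIX_IP, 1 to 3 for MIX_IT against NCTD_IT, 1 to 4 against PTX_IT, 2 to 3 for NCTD_IT against PTX_IT, 1 to 3 for the departure from the sum, and 0 to 3, 0 to 2 and 2 to 5 for the route differences of NCTD, PTX and MIX. Members without overlap numbered 4 to 6 in NCTD_IT, 2 to 3 in MIX_IT, 0 to 2 in PTX_IT, 4 to 7 in NCTD_IP, 4 to 6 in PTX_IP and 6 to 7 in MIX_IP.

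Without the filter on low counts, where the spread was set wholly by its trend over expression, adjusted calls numbered 5 in NCTD_IT, 3 in MIX_IT, 1 in PTX_IT, NCTD_IP, PTX_IP and MIX_IP, 2 for MIX_IT against NCTD_IT, 3 against PTX_IT, 2 for NCTD_IT against PTX_IT, 2 for the departure, and 2, 1 and 4 for the route differences of NCTD, PTX and MIX. Unadjusted calls became 2 in NCTD_IP, 5 for NCTD_IT against PTX_IT and 2 for the route difference of PTX. DESeq2 gave 2 adjusted calls in MIX_IT and 1 each in MIX_IP, MIX_IT against PTX_IT and NCTD_IT against PTX_IT, and 1 unadjusted call in NCTD_IP and for MIX_IT against NCTD_IT. With only the 2 compared groups in the fit, unadjusted calls were 1 in NCTD_IP, 0 in PTX_IT and 1 for MIX_IT against NCTD_IT. In the model of all 23 tumors they were 1 in MIX_IP and 0 in PTX_IP. With Xist as a covariate, NCTD_IT had 0 adjusted and 2 unadjusted calls, PTX_IT 0 unadjusted and MIX_IT 1 adjusted call, Mmp9 (adjusted p = 0.0364). Xist did not overlap with CONTROL_IT in NCTD_IT or PTX_IT, so for these groups that fit cannot separate host sex from the drug. With the size factors of DESeq2 in edgeR, Mmp14 in NCTD_IT had an adjusted p of 0.050. The cause of these moves was not tested. Among the log2 fold changes of members given with an error, no value reversed; under the settings other than an omission, 103 stayed on their side of the adjusted threshold, 27 gained and 4 lost a call, and with a tumor omitted, 239 stayed, 1 gained and 18 lost it.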
